A study of Mus musculus with 8 samples.

Results

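Neonatal brain RNA was set side by side between ICSI-F2 libraries of code letter G (2 libraries) and ICSI-F2 libraries of code letter F (2 libraries), 4 of the 8 libraries of the series. They were picked by the letter in the sample titles, across all genes. ICSI, intracytoplasmic sperm injection, is an assisted conception method in which a sperm is placed directly in the egg. All 4 brains came from C57BL/6 males, the naturally sired offspring of fathers born after ICSI. The remaining 4 libraries, code letters D and A with 2 libraries each, came from neonates of naturally mated wild-type C57BL/6 parents, whose sex is not in the labels. No transgene, drug or age in days is named for either side. No label used here says what the letter marks. Each letter lies inside a single group, so the letter and any litter, dissection or batch that goes with it cannot be told apart. Nothing says that libraries of a letter came from separate litters, so p-values reflect no more than the spread between libraries, which may be technical. The code G and code F animals carry the same label otherwise, and the comparison therefore shows what differs inside the ICSI-F2 group.

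The gene lists that held the most calls were those of liver, of connective tissue matrix and of meningeal fibroblasts. Genes called higher were 9 of 18, 6 of 33 and 5 of 34 tested members in that order, against 0.273% of all tested genes. The 9 liver genes had enough counts to be tested through the code G libraries alone, so their number is no support for a difference. The meninges are the membranes that cover the brain, and their fibroblasts make fibrillar collagens, small proteoglycans and solute transporters. Macrophages that live in the meninges and along vessels carry scavenger receptors that most microglia lack. Liver cells make the abundant proteins of blood plasma, among them albumin, and the fetal liver also makes alpha-fetoprotein. In RNA from whole tissue, more cells of a type and more RNA per cell cannot be told apart.

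Totals were 13024441 and 13156327 counts in code G, 16348777 and 12968175 in code F, 15893631 and 13872777 in code D and 16551511 and 15163420 in code A, in the order of replicates 1 and 2. Values below are CPM, counts relative to the library total after scaling for library composition. Neuronal transcripts were abundant throughout, with Tubb3 at 1295 to 1468 CPM and Dcx at 1636 to 1812 CPM over the 8 libraries. Code F replicate 1 differed from the other ICSI-F2 libraries in cerebellar transcripts. Its Atoh1, a factor of granule neuron precursors, was at 2.26 CPM and its Purkinje cell gene Pcp2 at 1.46 CPM, against no more than 0.0765 CPM of either in the code G libraries and 0 in code F replicate 2. The code A controls held them too, with Atoh1 at 1.53 and 0.53 CPM and Pcp2 at 1.83 and 1.13 CPM. The code A controls also carried Hox transcripts, such as Hoxb5 at 17.7 and 7.42 CPM, where the other 6 libraries had 0 to 0.0765 CPM.

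Of 16101 genes tested, 53 (0.329%) differed between the code letters, 44 (0.273%) higher and 9 (0.0559%) lower in code G than in code F. The test was edgeR's quasi-likelihood F test, at a Benjamini-Hochberg adjusted p of 0.05. With no adjustment, 590 genes (3.66%) were higher and 521 (3.24%) lower at a p of 0.05. The median log2 fold change over all tested genes was -0.0019, and 49.2% of them were above 0. Precision was set by a median standard error of 0.107 on the log2 scale. For 72.7% of tested genes the 95% interval reached no farther than 1.5-fold in either direction. A comparison of 2 libraries with 2 has no exact two-sided permutation p under 0.333, so the calls rest on the spread pooled over all genes and all 4 code letters. Calls also rested on single libraries. Genes called higher numbered 23 without code G replicate 1, 19 without code G replicate 2, 23 without code F replicate 1 and 38 without code F replicate 2, and genes called lower numbered 0, 2, 3 and 36.

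The controls, which the contrast itself does not use, show which side stood apart. Both code G libraries lay above all 4 controls for 36 of the 44 genes called higher, against 8.76% of all tested genes. Both code F libraries lay below all 4 controls for 15 of the 44, against 7.37% of all tested genes. The 9 liver genes among the 36 passed the filter on low counts through the code G libraries alone, so their place above the controls is no support. Of the 35 called genes outside the liver list, the 2 counts were 27 and 15, and 10 genes met both. 3 genes met neither, Igf1 and Kcna2 among them. Of the 9 genes called lower, 8 had both code G libraries below all 4 controls, where 8.25% of all tested genes did, and Cdc42bpg was the exception. Eps8l1 was the 1 gene of the 9 with both code F libraries above all 4 controls, which held for 7.66% of all tested genes. Since calls need a gap between the code letters, some such excess comes with the choice of called genes and is not a test.

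**Figure D1:**
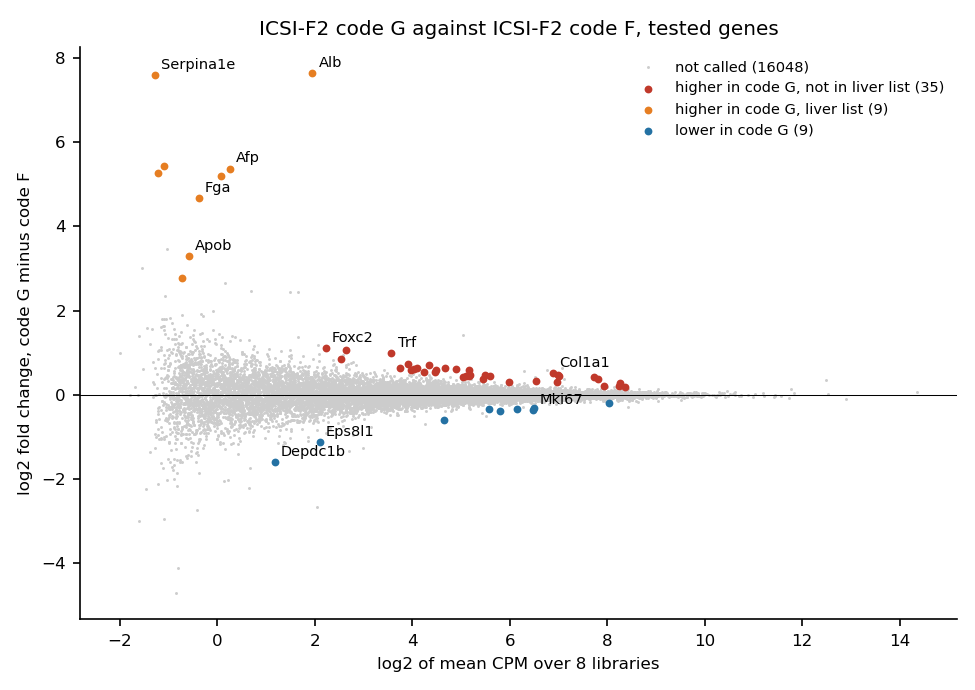
Log2 fold change of code G minus code F (vertical axis) against the log2 mean CPM of the 8 libraries (horizontal axis) for each of the 16101 tested genes, with called genes in colour. The 9 called liver genes lie at 2.77 to 7.65 on the log2 scale and at low mean CPM, while the other 35 genes called higher reach at most 2.15-fold and are mostly well expressed.

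Transcripts of Alb and Afp, plasma protein genes of the liver, were counted in both code G libraries and at no more than 2 counts in each of the other 6. Alb, which encodes serum albumin, had 136 and 266 counts in the code G libraries (10.4 and 20.2 CPM), against 1 and 1 counts in the code F libraries. All 4 controls had 0. Afp, which encodes alpha-fetoprotein, the albumin relative of fetal plasma, had 38 and 82 counts in code G and 2 and 1 counts in code F. The controls had 0 to 2 counts. Neither gene overlapped between the code letters, and in both code G replicate 2 was the higher library. Over the pair of libraries on each side, the ratio of CPM was 225 for Alb (95% exact counting interval 62.0 to 1868) and 44.9 for Afp (14.99 to 221). These intervals cover counting error only. Both genes passed the filter on low counts through the code G libraries alone, so their calls in edgeR's test are a description, and no p is given as support. Alb was not called in limma voom, at an adjusted p of 0.164, nor without code F replicate 1, at 0.184, nor without code F replicate 2, at 0.0723. Alb and Afp neighbour each other on chromosome 5 of mm10, at 90460897 to 90476602 and 90490737 to 90508907 on the plus strand.

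The liver list holds 65 genes, all of them in the file. In code G 54 of them had at least 1 count, in code F 38 and in the controls 48, and 4 had none in any library. Their summed level was 49.6 and 82.7 CPM in code G, against 19.8 and 18.1 CPM in code F and 18.9 to 20.8 CPM in the controls. Without Alb and Afp, the sum was 36.3 and 56.3 CPM in code G and 19.6 and 17.98 CPM in code F. Only 18 members passed the filter on low counts. The 9 of them that were called passed it through the code G libraries alone, where they are high, which makes their number no support for the difference.

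The promoters of 3 of the called liver genes are shown because their genes are read almost solely in the code G libraries and because they share a short motif. The capitals mark that motif, GTTAAT. The sequences are RefSeq promoters of GRCm38.p6, from 250 bases before to 50 bases after the start, printed on the strand of the gene.
Alb, chr5:90460620-90460919, plus strand: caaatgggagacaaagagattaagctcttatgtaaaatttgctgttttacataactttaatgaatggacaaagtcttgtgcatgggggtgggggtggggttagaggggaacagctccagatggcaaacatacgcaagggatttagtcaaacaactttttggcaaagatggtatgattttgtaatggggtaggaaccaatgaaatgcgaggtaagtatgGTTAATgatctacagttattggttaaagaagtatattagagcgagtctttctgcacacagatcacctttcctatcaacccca
Afp, chr5:90490464-90490763, plus strand: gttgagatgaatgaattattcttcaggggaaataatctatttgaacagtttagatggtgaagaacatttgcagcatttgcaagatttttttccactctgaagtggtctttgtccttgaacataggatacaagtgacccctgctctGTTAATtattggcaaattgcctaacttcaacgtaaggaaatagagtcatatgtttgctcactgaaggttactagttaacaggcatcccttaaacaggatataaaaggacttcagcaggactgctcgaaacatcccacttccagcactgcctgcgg
Serpina1e, chr12:103956848-103957147, minus strand: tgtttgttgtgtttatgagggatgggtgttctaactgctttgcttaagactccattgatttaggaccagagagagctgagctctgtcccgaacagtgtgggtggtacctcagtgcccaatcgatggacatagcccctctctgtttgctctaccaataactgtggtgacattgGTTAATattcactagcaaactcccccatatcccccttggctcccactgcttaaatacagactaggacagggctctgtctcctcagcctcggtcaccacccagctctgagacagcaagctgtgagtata
The motif began 32 bases before the start used by these windows in Alb, 105 bases in Afp and 78 bases in Serpina1e. That start is not the gene start of the annotation used for gene coordinates here. In Serpina1e, for one, the annotated gene runs from 103946931 to 103958975. Searched on both strands, GTTAAT was found in 18 of 53 promoters (34.0%) of the liver list, for 49 genes matched by symbol, and in 2332 of all 32851 promoters (7.1%). Of the 9 called liver genes, Alb, Afp, Serpina1e, Fga and Fgb held it. Of 29 promoters matched to genes called higher outside the liver list, 3 (10.3%) held it. The motif was not particular to the liver list, since 5 of 27 promoters (18.5%) of the meningeal fibroblast list held it too. A longer motif that begins with the same letters was found in 0 of the 53 liver list promoters and in 3 of all 32851. A match is a description of letters, not evidence of a bound site.

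The 3 chains of fibrinogen, the clot protein, are encoded by neighbouring genes on chromosome 3. Fga had 29 and 45 counts in code G, against 2 and 1 counts in code F, a CPM ratio of 27.7 (exact interval 9.11 to 137). Fgb had 17 and 31 counts in code G and 0 and 1 counts in code F, and Fgg had 13 and 30 counts in code G and 0 and 1 counts in code F. All 3 chains were thus nearly silent outside the code G libraries, with 0 to 2 counts in any control. Serpina1e, one of the mouse alpha-1-antitrypsin genes, had 14 and 29 counts in code G and 0 counts in each of the other 6 libraries. Against a floor of 3 counts over both code F libraries, it was at least 16.1-fold higher in code G, and the exact 95% counting interval of the ratio had a lower limit of 12.5. Its call was lost in DESeq2, without code F replicate 1, at an adjusted p of 0.0515, and without code G replicate 2, where it was too low to be tested. Its near-identical copies could share its reads, and their counts in code G were 5 and 3 for Serpina1b and 4 and 3 for Serpina1d. Ahsg, which encodes the plasma glycoprotein fetuin-A, had 26 and 81 counts in code G, against 0 and 3 counts in code F. Its call was lost in DESeq2, in limma voom, at an adjusted p of 0.218, and in edgeR's test on the 4 ICSI-F2 libraries alone, at 0.186. Fgb and Fgg were not called in DESeq2, at adjusted p-values of 0.165 and 0.261. Ahsg, Fgb and Fgg also each lost their call without code G replicate 2.

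Apolipoprotein transcripts showed the pattern less cleanly, since the brains of the other letters also held some. Apob, the core protein of liver-made lipoproteins, had 12 and 34 counts in code G and 2 and 3 counts in code F, but control code A replicate 1 had 11. Apoa1, the main protein of high-density lipoprotein, was at 1.30 and 2.05 CPM in code G, against 0.122 and 0.384 CPM in code F and 0.126 to 0.367 CPM in the controls. Both entered edgeR's test through the code G libraries alone, so their calls there are a description too. Neither was called in DESeq2, with an adjusted p of 0.203 for Apob and 0.503 for Apoa1, nor without code F replicate 1 or code G replicate 2.

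The liver genes most abundant in code G per length were Alb at 4.44 and 8.64 CPM per kilobase of exon and Itih2 at 2.58 and 2.89. Itih2, a heavy chain of the inter-alpha-trypsin inhibitor, is also read in the other brains, at 8.57 and 9.58 CPM in code G, 5.06 and 5.99 CPM in code F and 4.83 to 6.28 CPM in the controls, and its adjusted p was 0.0724. Plasma protein genes made up most of the excess. The 40 plasma protein genes summed to 42.1 and 73.3 CPM in code G, against 13.4 and 12.1 CPM in code F and 12.1 to 12.9 CPM in the controls. The 25 genes for liver enzymes, transporters, receptors and nuclear factors summed to 7.42 and 9.43 CPM in code G, against 6.40 and 6.07 CPM in code F and 6.497 to 8.68 CPM in the controls. Their code G sums overlapped those of code A, and none of their 5 tested members was called. Cps1, the first enzyme of the urea cycle, had 0.918 and 1.52 CPM in code G and 0.366 and 0.922 CPM in code F.

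**Figure D2:**
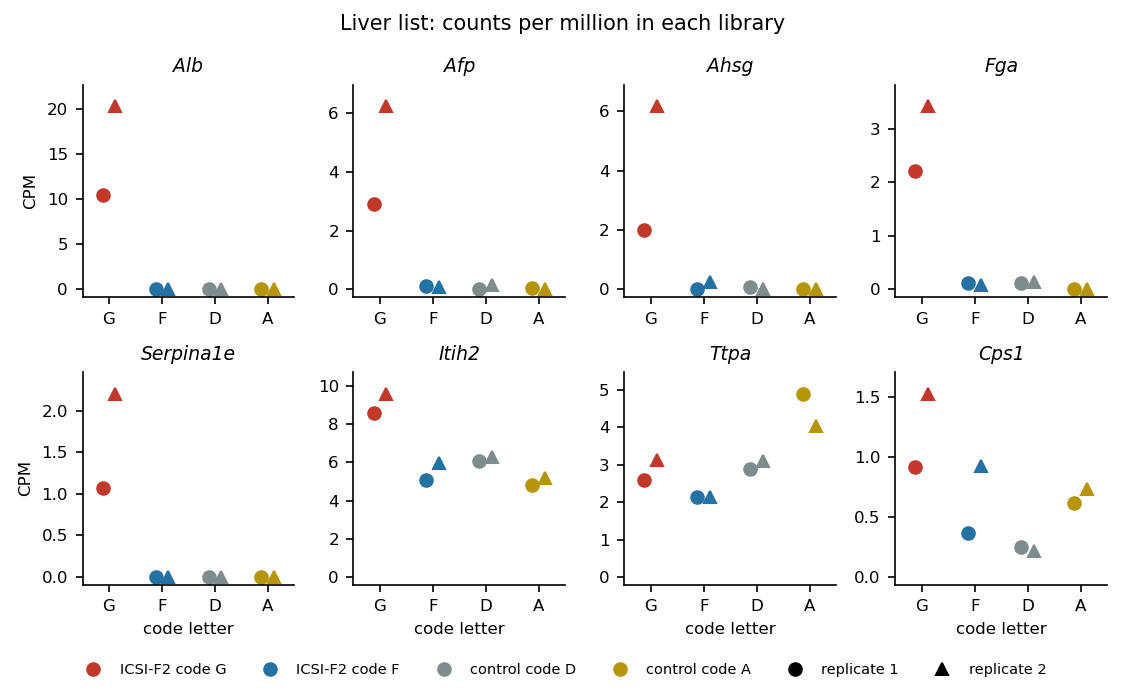
CPM in each of the 8 libraries (vertical axis, starting near 0) for 8 liver genes, with libraries placed by code letter on the horizontal axis and replicates 1 and 2 as circles and triangles. Alb, Afp, Ahsg, Fga and Serpina1e stand off 0 in the code G libraries and lie at or near 0 elsewhere, whereas Ttpa and Cps1 are read in every library.

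A search over the whole table for genes with at least 20 counts over the libraries of one letter and at most 3 over the other 6 libraries found 5 genes for code G. They were Alb, Fgb, Fgg, Serpina1e and Pzp. Pzp encodes a plasma protease inhibitor of the alpha-2-macroglobulin family and was on no list, with 8 and 21 counts in code G and 0 and 0 counts in code F. The same search found 0 genes for code F, 0 for code D and 7 for code A, all of the last from Hox clusters. With a minimum of 10 counts, code G gained Kng1, which encodes the plasma protein kininogen, and Apoa4, an apolipoprotein with 12 counts in code G replicate 1 and 0 in replicate 2. That minimum gave 7 genes for code G, 1 for code F, 0 for code D and 13 for code A. Those of code A were then no longer all from Hox clusters, with Fcnb and Camp among them.

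The code G libraries differed from each other in liver transcripts, while their ratios for other called genes centred on 1. The CPM ratio of code G replicate 2 over replicate 1 had a median of 2.06 over the 9 called liver genes, between 1.54 for Fga and 3.10 for Ahsg, and the 95% counting interval lay above 1 for 6 of them. Over all tested genes with enough counts it lay above 1 for 1068 of 15386, and it holds counting error alone, not the spread between animals. For Alb the ratio was 1.94 (exact interval 1.58 to 2.41). Over the 35 genes called higher outside the liver list, the median ratio was 1.0005, with a range of 0.741 for Nbl1 to 1.36 for Trf. It was 0.97 over 33 meningeal fibroblast genes, 1.02 over 30 microglia and macrophage genes and 1.0016 over 15386 tested genes with enough counts. Calls of small size favour genes on which the code G libraries agree, so ratios near 1 among the called genes come partly with their choice. Genes are not independent replicates, so these ratios are descriptions of the pair of libraries.

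**Figure D3:**
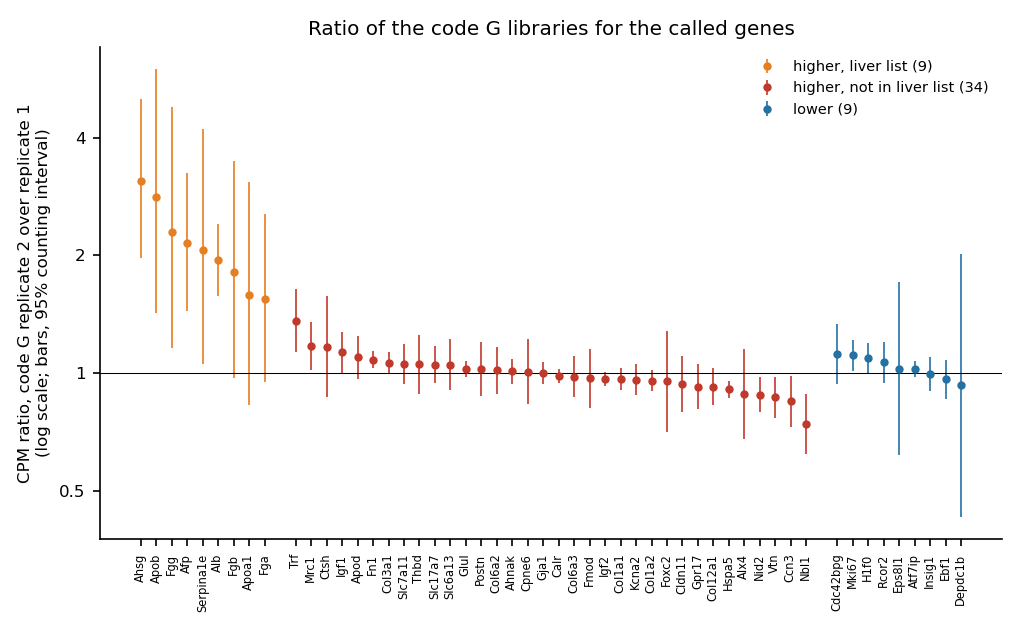
CPM ratio of code G replicate 2 over code G replicate 1 (vertical log axis) for the called genes named on the axis, grouped as liver, other genes called higher and genes called lower, with 95% counting intervals as bars. The 9 liver genes lie at 1.54 to 3.10, and the other genes called higher lie around 1.

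Genes of meningeal fibroblasts had mostly positive log2 fold changes of moderate size. Of 34 tested members, 5 were called higher (background 0.273%) and 0 lower, 33 had a log2 fold change above 0 (background 49.2%), and the median was 0.36 against -0.0019 over all tested genes. Both code G libraries lay above both code F libraries for 28 members (background 17.7%) and above all 4 controls for 22 (background 8.76%). The summed level was 826 and 808 CPM in code G, 629 and 611 CPM in code F and 584 to 636 CPM in the controls. This list was drawn up with the direction already known from these data, so its counts are no independent evidence of it.

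Col1a1 and Col1a2 had the smallest adjusted p-values of the list. Col1a1, which encodes the alpha 1 chain of type I collagen and lies on chromosome 11 at 94936224 to 94953042, had 154 and 149 CPM in code G, against 103 and 110.1 CPM in code F. Controls had 100.8 to 114.8 CPM, so that the code G libraries stood alone. The log2 fold change was 0.51 (SE 0.05), the adjusted p in edgeR's test 1.85e-06, and the call held in all 15 alternative analyses. Col1a2, the partner chain, had 165 and 158 CPM in code G, 119.5 and 119 CPM in code F and 113 to 120.4 CPM in the controls. Col3a1, type III collagen of soft connective tissue, had 144.5 and 153 CPM in code G and 123 and 117 CPM in code F. Its log2 fold change of 0.31 lost its call without code G replicate 2, at an adjusted p of 0.108.

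Fmod and Foxc2 were the other members called. Fmod, which encodes the collagen-binding proteoglycan fibromodulin, had 21.04 and 20.4 CPM in code G, against 12.2 and 12.9 CPM in code F and 12.7 to 14.6 CPM in the controls. Its log2 fold change was 0.72. Foxc2, a forkhead factor of head mesenchyme and lymphatic vessels, had 7.34 and 6.996 CPM in code G and 3.29 and 3.38 CPM in code F, a log2 fold change of 1.10. At 2.15-fold this was the largest rise among called genes outside the liver list, but its adjusted p of 0.00488 became 0.0721 in DESeq2, 0.0878 without code F replicate 1, 0.122 without code G replicate 1 and 0.0662 without code G replicate 2. Dcn, which encodes the proteoglycan decorin, had 21.7 and 21.8 CPM in code G and 15.1 and 16.4 CPM in code F and was not called (log2 fold change 0.47, adjusted p 0.0749). Crabp2, a retinoic acid carrier, was the sole tested member below 0, at -0.01.

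Basement membrane and interstitial matrix genes gave 6 of 33 members called higher (background 0.273%) and 0 lower, with 28 above 0 (background 49.2%) and a median of 0.20. Fn1, which encodes fibronectin, had 243 and 263 CPM in code G, against 196 and 197 CPM in code F and 219 to 231.5 CPM in the controls, a log2 fold change of 0.37. Code G thus lay above and code F below every control. Col6a2, a chain of the beaded type VI collagen, had 32.5 and 33.0 CPM in code G, 20.6 and 21.9 CPM in code F and 22.0 to 26.2 CPM in the controls. The partner chain Col6a3 had a log2 fold change of 0.44, Nid2, which encodes the basement membrane linker nidogen-2, also 0.44, and Postn, which encodes periostin, 0.54. Col12a1 had a log2 fold change of 0.38 and the largest adjusted p of a called gene, 0.0476, a value shared with Ctsh and Kcna2. Fn1 and Col6a2 kept their calls in all alternatives, while each of the other 4 lost its call without code G replicate 1, at adjusted p-values of 0.134 for Col6a3, 0.266 for Nid2, 0.11 for Postn and 0.69 for Col12a1.

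Col4a1, an abundant collagen of vessel basement membranes, was not called. It had 267 and 283 CPM in code G and 239 and 246 CPM in code F, with an adjusted p of 0.181. Of 25 endothelial genes none was called and 20 were above 0 (background 49.2%), with a median of 0.10. Of 15 pericyte and smooth muscle genes none was called and 4 were above 0 (background 49.2%), with a median of -0.07. Without code F replicate 1 that median was 0.02.

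Growth factors that meningeal mesenchyme is known to make were also among the called genes. Igf2, an imprinted growth factor expressed from the paternal allele in most fetal tissues, had 363 and 351 CPM in code G, against 303 and 287 CPM in code F and 279 to 298 CPM in the controls. The log2 fold change was 0.27, adjusted p 0.00105, and the adjusted p became 0.081 without code G replicate 1. It was the one call among 52 tested imprinted genes (background 0.273%), 27 of which were above 0 (background 49.2%), with a median of 0.02. Igf1, the related factor, had 39.6 and 44.8 CPM in code G and 25.5 and 30.8 CPM in code F. It had 41.9 CPM in control code A replicate 1, within the code G range, and 39.3 CPM in replicate 2, just below that range. Its call was lost without code F replicate 1, at an adjusted p of 0.0887, and without code G replicate 2, at 0.0953. Of the 24 growth factor and binding protein genes, 2 were called higher (background 0.273%), 22 were above 0 (background 49.2%) and the median was 0.27. Ptgds, prostaglandin D synthase of the meninges and choroid plexus, had 179 and 179 CPM in code G and 121.5 and 108 CPM in code F, with an adjusted p of 0.13.

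Of the 44 genes called higher, 17 stood on no list. Slc6a13, a GABA and taurine transporter of leptomeninges, had 26.4 and 27.7 CPM in code G, against 16.0 and 17.1 CPM in code F and 16.7 to 20.8 CPM in the controls. Apod, which encodes apolipoprotein D, had 35.9 and 39.4 CPM in code G and 23.9 and 25.2 CPM in code F. Both were called in all 15 alternatives, with log2 fold changes of 0.71 for Slc6a13 and 0.62 for Apod. Alx4, a homeobox factor of craniofacial mesenchyme, had 9.56 and 8.44 CPM in code G and 3.90 and 4.76 CPM in code F. Its call was lost without code F replicate 1, at an adjusted p of 0.101, and without code G replicate 1, at 0.103. Trf, which encodes the iron carrier transferrin, made by liver as well as by oligodendrocytes and choroid plexus, had 15.4 and 20.99 CPM in code G, 9.33 and 9.07 CPM in code F and 9.47 to 10.8 CPM in the controls. Its call was lost without code G replicate 2, at an adjusted p of 0.0662. Vtn, which encodes vitronectin, a protein of both plasma and pericytes, had a log2 fold change of 0.45 and code G values of 46.0 and 39.9 CPM, against 34.1 and 28.5 CPM in code F. Its adjusted p was 0.127 in DESeq2, 0.327 without code F replicate 2 and 0.69 without code G replicate 1.

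Further single genes called higher had modest changes. Slc7a11, the cystine and glutamate exchanger, had a log2 fold change of 0.47, Ccn3, a secreted matrix-associated protein, 0.54, and Nbl1, a secreted antagonist of bone morphogenetic proteins, 0.62. Thbd, which encodes the anticoagulant receptor thrombomodulin, had 0.59, Ctsh, a lysosomal cysteine protease, 0.86 and Ahnak, a large scaffold protein, 0.32. Each of these 6 lost its call in at least 1 analysis that left out a code G or code F library.

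**Figure D4:**
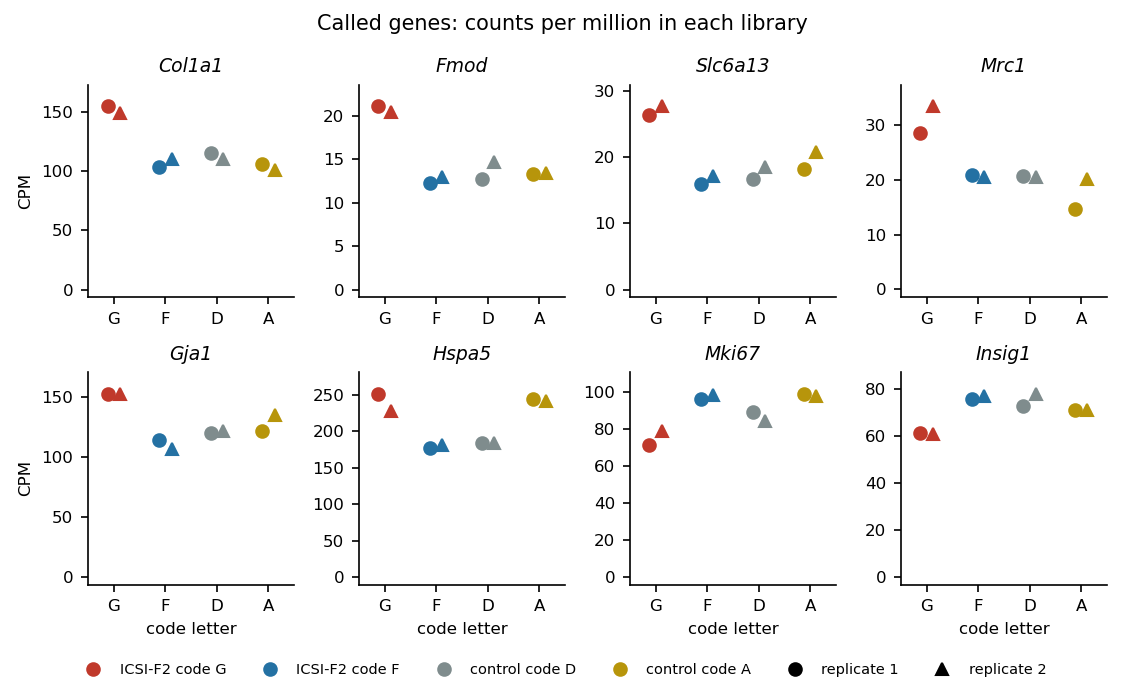
CPM in each of the 8 libraries (vertical axis) for 8 called genes, with libraries placed by code letter on the horizontal axis. Col1a1, Fmod, Slc6a13, Mrc1 and Gja1 are higher in both code G libraries than in all others, Hspa5 is as high in the code A controls, and Mki67 and Insig1 are lowest in code G.

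Of the macrophage genes, a marker of border macrophages was called. Mrc1, the mannose receptor of perivascular and meningeal macrophages, had 28.5 and 33.5 CPM in code G, against 20.8 and 20.5 CPM in code F and 14.8 to 20.7 CPM in the controls. Its log2 fold change was 0.58 with an adjusted p of 0.00827, which became 0.348 without code G replicate 2, 0.0801 without code F replicate 1 and 0.0705 in DESeq2. It was the single call among 30 tested microglia and macrophage genes (background 0.273%), of which 26 were above 0 (background 49.2%), with a median of 0.29. Both code G libraries lay above all 4 controls for 11 of them (background 8.76%). Lyve1, a hyaluronan receptor of border macrophages and lymphatic endothelium, had 7.34 and 7.45 CPM in code G and 4.39 and 3.92 CPM in code F, with an adjusted p of 0.141. F13a1, which encodes a coagulation factor subunit made by macrophages, had 21.6 and 21.3 CPM in code G and 15.9 and 16.1 CPM in code F, with an adjusted p of 0.191. The microglial genes Cx3cr1, P2ry12 and Tmem119 had log2 fold changes of 0.06, -0.09 and 0.57, none of them called.

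Interferon and antigen presentation genes had a median log2 fold change of 0.24 with 23 of 25 tested members above 0 (background 49.2%) and no call. Ifitm3, an interferon-induced membrane protein, had 7.27 and 7.30 CPM in code G and 4.94 and 4.15 CPM in code F, with an adjusted p of 0.221. The controls, at 5.38 to 7.72 CPM, spanned the code G values. Both code G libraries lay above all controls for 5 of the 25 genes (background 8.76%). B2m, the light chain of class I molecules, had 20.1 and 18.6 CPM in code G and 16.7 and 14.1 CPM in code F, with an adjusted p of 0.526.

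Red blood cell transcripts gave no call. Hbb-bs, adult beta-globin, had 6.81 and 6.996 CPM in code G, against 8.54 and 7.61 CPM in code F and 2.74 to 5.91 CPM in the controls. None of 10 tested erythroid genes was called and 4 were above 0 (background 49.2%). The part of the liver, meningeal and macrophage transcripts in the single-gene calls of code G was not tested.

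Glial genes gave a few calls of small size. Gja1, which encodes the gap junction protein connexin 43 of astrocytes and of meningeal cells, had 152.5 and 152.5 CPM in code G, against 114 and 107 CPM in code F and 120.2 to 134.7 CPM in the controls. The log2 fold change was 0.46 (SE 0.05) with an adjusted p of 4.81e-06, and the call held in all alternatives. It was the one call among 24 astrocyte genes (background 0.273%), 21 of which were above 0 (background 49.2%), with a median of 0.13. The astrocyte and radial glia transporter Slc1a3 had 206 and 212 CPM in code G and 231 and 187 CPM in code F. Glul, glutamine synthetase of astrocytes, had 250.1 and 256 CPM in code G, against 226 and 211 CPM in code F, but the controls, at 233 to 270.2 CPM, reached above code G. Its log2 fold change of 0.21 lost its call without code G replicate 1, at an adjusted p of 0.228, and also in DESeq2, at 0.089, without code F replicate 2, at 0.415, and without code G replicate 2, at 0.395.

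Among 19 oligodendrocyte lineage genes 2 were called higher (background 0.273%) and 14 were above 0 (background 49.2%), with a median of 0.12. Cldn11, a tight junction protein of myelin and of the arachnoid barrier, had 22.6 and 21.2 CPM in code G, against 14.3 and 14.1 CPM in code F and 13.9 to 18.8 CPM in the controls. Gpr17, a receptor of differentiating precursors, had 36.5 and 33.7 CPM in code G and 27.2 and 25.05 CPM in code F, while the code A controls had 40.8 and 40.0 CPM. Both lost their calls in DESeq2, without code F replicate 1 and without either code G library, with adjusted p-values of up to 0.26 for Cldn11 and 0.485 for Gpr17, both without code G replicate 1. The lineage factor Sox10 had a log2 fold change of 0.44 and an adjusted p of 0.356.

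Neuronal lists had medians close to 0. Slc17a7, the vesicular glutamate transporter VGLUT1, had 50.7 and 53.3 CPM in code G, against 35.9 and 40.1 CPM in code F and 40.9 to 50.4 CPM in the controls. The log2 fold change was 0.46 with an adjusted p of 0.00827. It was the single call (background 0.273%) among 26 presynaptic genes, with a median of 0.05, and among 19 olfactory bulb genes, with a median of 0.11. Cpne6, a calcium-dependent membrane-binding protein of neurons, had a log2 fold change of 0.64 and Kcna2, an axonal potassium channel subunit, 0.30. All 3 lost their calls without code G replicate 1 and without code G replicate 2. Slc17a7 and Cpne6 also lost theirs without code F replicate 1, and Kcna2 without code F replicate 2 and without control code D replicate 1. In DESeq2 Cpne6 and Kcna2 were not called, at adjusted p-values of 0.178 and 0.268, nor was Kcna2 in limma voom, at 0.0606. Cortical excitatory, interneuron, thalamic, hypothalamic and newborn neuron lists had no call, with medians of -0.01, 0.04, 0.01, -0.03 and -0.04.

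Hspa5, which encodes the endoplasmic reticulum chaperone BiP, had 251 and 228 CPM in code G, against 177 and 181 CPM in code F. The code D controls, at 185 and 184 CPM, lay near code F, whereas the code A controls, at 245 and 241 CPM, lay in the code G range. The log2 fold change was 0.42 (95% interval 0.32 to 0.52) with an adjusted p of 4.81e-06, and the call held in all alternatives. Calr, which encodes the chaperone calreticulin, had 346 and 339 CPM in code G, 299 and 302 CPM in code F and 315 to 375 CPM in the controls. In a chaperone list drawn up after these values were seen, these were the 2 calls among 23 tested genes (background 0.273%). Of the 23 genes, 20 were above 0 (background 49.2%), with a median of 0.08. Calr lost its call in DESeq2 and without each of the 4 ICSI-F2 libraries, at adjusted p-values between 0.0802 in DESeq2 and 0.507 without code G replicate 1.

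Cell division genes had negative log2 fold changes throughout, and 1 was called. Mki67, the proliferation marker Ki-67, had 71.4 and 79.2 CPM in code G, against 96.2 and 98.3 CPM in code F and 84.5 to 98.9 CPM in the controls. Both code G libraries lay below all others. Its log2 fold change was -0.37 (95% interval -0.49 to -0.24) with an adjusted p of 0.00117, and it lost its call without code G replicate 1, at an adjusted p of 0.147. It was the one call among 30 proliferation genes (background 0.0559%), a list in which all 30 were below 0 (background 50.8%) with a median of -0.21. Both code G libraries lay below both code F libraries for 19 members (background 17.9%) and below all 4 controls for 8 (background 8.25%). The summed level of the list was 597 and 636 CPM in code G, 710.1 and 699 CPM in code F and 658 to 704 CPM in the controls.

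The other 29 members were not called. Kif11, a kinesin of the spindle, had 20.8 and 21.9 CPM in code G and 27.7 and 28.3 CPM in code F, with a log2 fold change of -0.39 and an adjusted p of 0.0821. Bub1b, a spindle checkpoint kinase, had a log2 fold change of -0.48 and an adjusted p of 0.205. The replication genes Pcna, Mcm6 and Rrm1 had log2 fold changes of -0.03, -0.03 and -0.01. Depdc1b, a mitotic gene outside the list, had 1.22 and 1.14 CPM in code G, against 4.70 and 2.38 CPM in code F and 1.71 to 2.60 CPM in the controls, so that code F replicate 1 stood above all others. Its log2 fold change of -1.60 had an adjusted p of 0.0282, which became 0.607 without code F replicate 1.

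The remaining genes called lower fell in no common list. Insig1, the sterol sensor that restrains cholesterol synthesis, had 61.1 and 60.7 CPM in code G, against 75.9 and 77.1 CPM in code F and 71.1 to 77.9 CPM in the controls. The other 23 cholesterol synthesis genes were not called, and the list had a median of -0.06. Ebf1, a factor of striatal neurons and of pericytes, had 46.8 and 45.2 CPM in code G and 64.8 and 56.0 CPM in code F. Its log2 fold change was -0.40, and it was the one call among 20 striatal genes (background 0.0559%). Eps8l1, an actin regulator of the EPS8 family, had 2.53 and 2.59 CPM in code G and 5.61 and 5.53 CPM in code F, with code F above and code G below every control. H1f0, the linker histone of non-dividing cells, fell by 0.31, Rcor2, a neural corepressor subunit, by 0.34 and Atf7ip, a cofactor of histone methylation, by 0.19 on the log2 scale. Cdc42bpg, a kinase effector of Cdc42, fell by 0.59, yet control code D replicate 1, at 18.9 CPM, lay in its code G range of 18.6 to 20.8 CPM. All of these calls were lost when code G replicate 1 was left out, a fit that gave 0 genes called lower in edgeR's test and 375 at an unadjusted p of 0.05.

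The cerebellum, midbrain and hindbrain, and muscle medians rested on code F replicate 1. The cerebellum list had 20 of 22 tested members below 0 (background 50.8%) and a median of -0.17, which was -0.0004 without that library. The midbrain and hindbrain list had a median of -0.09, which was 0.14 without it, and the muscle list a median of -0.14, which was 0.22 without it. None of their members was called. Other medians also changed sign without that library. The pericyte and smooth muscle median went from -0.07 to 0.02, the hypothalamus median from -0.03 to 0.07 and the choroid plexus median from -0.03 to 0.02. The striatum median was -0.06 with and without it. The meningeal fibroblast median was 0.41 and the proliferation median -0.20 without the same library.

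**Figure D5:**
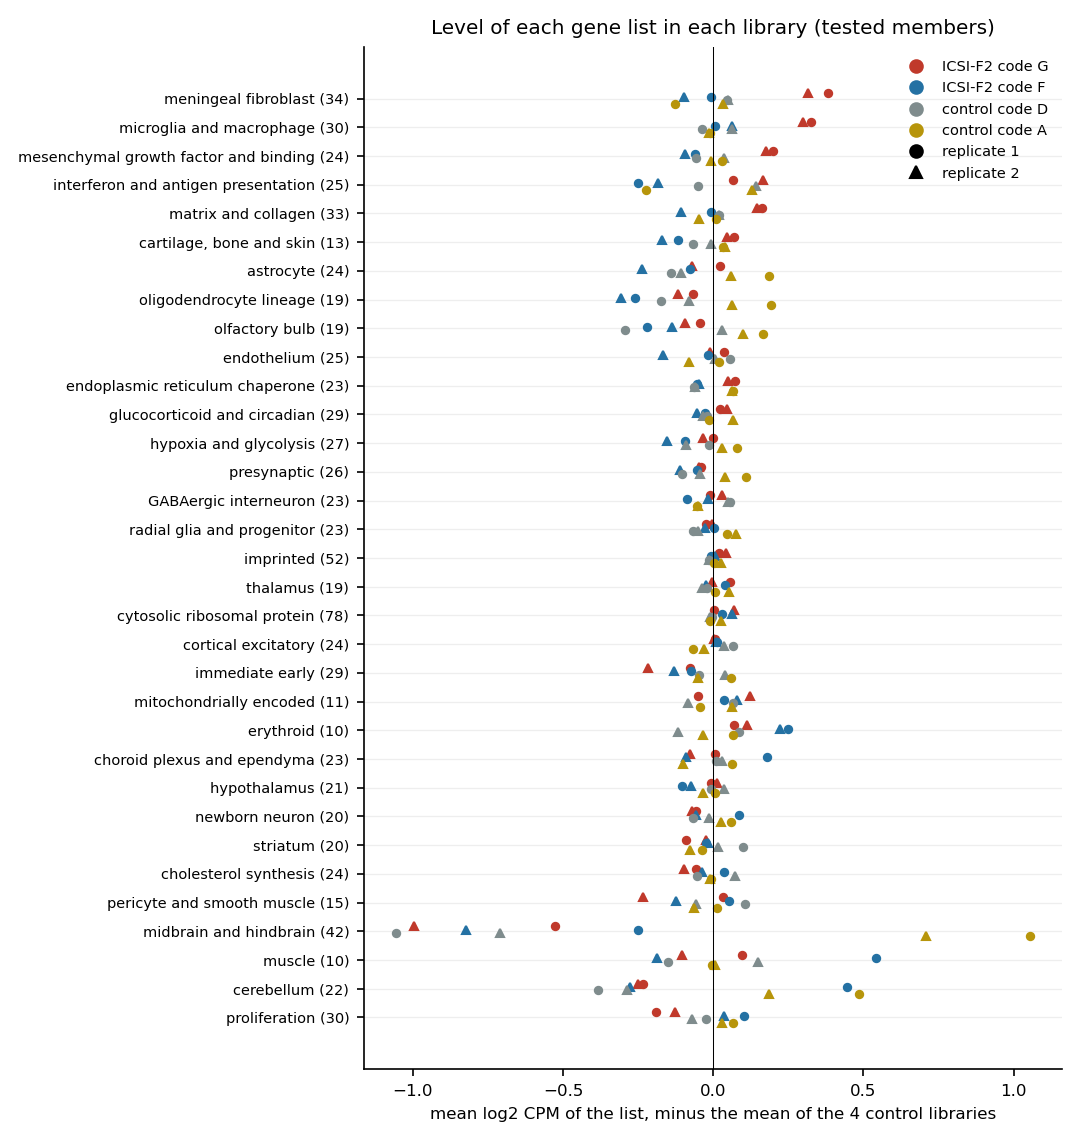
Mean log2 CPM of the tested members of each gene list in each library, minus the mean of the 4 control libraries (horizontal axis), with lists down the page and the number of tested members in brackets. The code G libraries lie to the right of all others for the meningeal, macrophage, growth factor and matrix lists and to the left for proliferation, while code F replicate 1 and the code A controls lie to the right for cerebellum.

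Cytosolic ribosomal protein genes, 78 in number, had no call, 39 above 0 (background 49.2%) and a median of -0.0001. Hypoxia and glycolysis genes had no call and a median of 0.07, immediate early genes none and a median of -0.01. Choroid plexus genes had no call and a median of -0.03, with Ttr, the thyroxine carrier made there and in liver, at 316 and 304 CPM in code G and 443 and 310.5 CPM in code F. Cartilage, bone and skin genes had no call among 13 tested, with a median of 0.19, and genes of lung, heart, kidney and gut none among 7, with a median of 0.17. In each of these other lists a missing call does not show that the genes were equal between the code letters.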

How the data were processed

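Messenger RNA of neonatal brain was sequenced in 8 libraries. Per the labels, the reads were single reads of 76 bases from stranded mRNA libraries. The series text and the sample protocols name different kits. Tools named in the submitters' processing notes are HTSeq 2.0.2, HISAT2 2.2.1, cutadapt 3.4 and bcl2fastq 2.20, and the build is mm10. The deposited values are raw read counts of 32285 genes, neither normalized nor pooled. No source used here gives the annotation release or the strand setting. Genes that overlap on opposite strands, and near-identical copies, are therefore uncertain. Of the gene identifiers, 32235 (99.8%) were found in GENCODE M21.

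Groups were the code letters in the titles, with replicates numbered in deposition order. Library totals were 12968175 to 16551511 counts, with 20038 to 20490 genes counted. Libraries of a letter differed by more than sampling noise (chi-square per gene 2.26 to 3.39), so none was treated as a duplicate. Genes passing filterByExpr (16101) were fitted in edgeR 4.0.16 on R 4.3.3 with all 8 libraries in 4 letter groups, by the robust quasi-likelihood F test of code G minus code F, with TMM factors (0.9889 to 1.004) and Benjamini-Hochberg adjustment at 0.05. All 8 libraries entered so that the spread had 4 residual degrees of freedom rather than 2. CPM are counts relative to the tested-gene total times the TMM factor. Count ratios carry exact 95% intervals, and a count of 0 was set against a floor of 3 counts. The steps were tested on simulated data.

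The members and the 38 gene lists (1057 entries, 1052 in the file) were chosen with earlier results of these data known. Named by rule were Alb, Afp and Col1a1, the 15 genes called higher and the 15 called lower with the smallest p (all 9 were), up to 5 called genes of each list, the 3 most abundant members of lists with no call, the 10 liver genes with the most counts and the 10 genes with the most counts among those found almost only in 1 code letter. Further genes, the chaperone list and the division of the liver list into plasma proteins and other genes were chosen after their values were seen. Alternatives were the 4 ICSI-F2 libraries alone, no code A libraries, RLE size factors, library totals alone, no filter on low counts, DESeq2 1.42.0, voom of limma 3.58.1 and leaving out each library. Results on 2 genes are not reported here.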

Additional observations from a re-analysis of the deposited data

How the results depend on the processing

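Genes called higher in code G numbered 71 and genes called lower 26 with no filter on low counts, and 22 and 2 in DESeq2. Leaving out each library gave 19 to 54 genes called higher and 0 to 36 called lower. All other alternatives lay within 1.5 times of the 44 and 9 calls. All 44 genes called higher and all 9 called lower kept their direction in every alternative in which they were tested, and Serpina1e was not tested without code G replicate 2. Of the calls, 11 higher and 0 lower held in all 15 alternatives: Col1a1, Col1a2, Col6a2, Fn1, Fmod, Apod, Slc6a13, Gja1, Hspa5, Afp and Fga. Afp and Fga passed the filter on low counts through the code G libraries alone, so their repeated calls are a description and no support. With 0 counts allowed in the other 6 libraries, 1 gene (Serpina1e) was found only in code G, against 0 in code F, 0 in code D and 4 in code A. The median over all tested genes moved by less than 0.01 on the log2 scale under each scaling. A fit that leaves a letter with 1 library assumes that it varies like the other letters. No paired analysis was possible because replicate numbers follow the order of deposition and carry no label that links code G to code F. At this depth, 18 of the 65 liver genes had enough counts to be tested.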
